A study of Mus musculus with 6 samples.

Results

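Genes of the brain vessel wall were examined in hippocampi of *Mov10* Deletion and wild-type (WT) mice at postnatal day 0 (P0). The genes were chosen by name, with earlier results of these data known. They comprised 8 endothelial or blood-brain barrier genes (*Cldn5*, *Pecam1*, *Cdh5*, *Flt1*, *Kdr*, *Slc2a1*, *Mfsd2a* and *Abcb1a*) and 2 pericyte genes (*Pdgfrb* and *Rgs5*). All 10 were among the 16745 genes that passed the expression filter, of 52230 genes summed from the transcript files. RNA was sequenced from 3 *Mov10* Deletion libraries and 3 WT libraries, each made from the pooled hippocampi of at least 2 pups. The *Mov10* Deletion mouse carries a conditional *Mov10* allele with loxP sites around internal exons, Cre recombinase driven from *Emx1*, and a germline mutant *Mov10* allele introduced by crossing to a heterozygous line. The study describes *Emx1*-Cre as removing MOV10 from excitatory neurons in hippocampus and neocortex. Endothelial cells arise from mesoderm, outside that lineage, but they also carry the germline mutant allele. Recombination in other cell types, astrocytes included, was not measured here. The sex of the pups is not given in the labels.

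Brain capillaries are tubes of endothelial cells sealed to each other by tight junctions, wrapped by a basement membrane and by pericytes, and covered by the end-feet of astrocytes. The blood-brain barrier is the set of properties by which these endothelial cells hold back molecules from blood: tight junctions close the space between cells, vesicular transport through cells is kept low, efflux pumps return lipophilic compounds to the blood, and dedicated transporters carry glucose, amino acids and lipids inward. Neural cells maintain the barrier through Wnt ligands and drive vessel growth through VEGF-A, and endothelial cells recruit pericytes by secreting PDGF-B. At birth the mouse hippocampus is still being vascularised.

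MOV10 unwinds RNA and acts with the microRNA silencing machinery. The targeted gene, *Mov10*, was at 2.45, 2.13 and 2.09 CPM (counts scaled to the TMM-normalized library size) in Deletion and 4.81, 4.75 and 4.80 CPM in WT, with a log2 fold change of -1.11 (limma-trend adjusted p = 0.00115), and -0.67 (adjusted p = 0.0140) on length-scaled counts. The libraries held between 71400300 and 86207971 estimated counts. *Prox1*, which marks dentate granule cells, was between 319.4 and 404.7 CPM in Deletion and between 282.8 and 340.3 CPM in WT. Every library is labelled hippocampus and no other tissue was compared, so these levels do not test the label. Deletion library 1 stood apart in markers of tissue that borders the hippocampus. The summed level of 9 choroid plexus genes was 122.2 TPM in that library and 10.1 and 18.9 TPM in Deletion libraries 2 and 3, against 22.2 to 44.4 TPM in WT, and the summed level of 12 fibroblast and meningeal genes was 121.1 TPM there and 33.3 and 42.4 TPM in Deletion libraries 2 and 3, against 47.0 to 56.6 TPM in WT. The macrophage genes *Mrc1* and *Lyve1* were also highest in it, at 5.29 and 4.26 TPM. On the CPM scale all 10 vessel genes were highest in Deletion library 1 among the 3 Deletion libraries, and the part of bordering tissue in their levels was not tested. The fold changes of the 10 vessel genes are given with and without this library.

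The vessel genes spanned a wide range of levels. In TPM, a scale corrected for transcript length and depth, *Rgs5* was between 86.9 and 113.5 TPM over the 6 libraries and *Cldn5* between 73.3 and 106.7 TPM, and these ranges overlapped. *Slc2a1* (36.1 to 45.1 TPM), *Mfsd2a* (30.6 to 34.3 TPM) and *Kdr* (16.2 to 20.7 TPM) followed, each without overlap with the next. The ranges of *Cdh5* (11.3 to 15.03 TPM) and *Pecam1* (11.04 to 13.6 TPM) overlapped over the 6 libraries, with *Cdh5* above *Pecam1* within each library. The ranges of *Pdgfrb* (8.64 to 10.8 TPM) and *Flt1* (7.73 to 8.90 TPM) overlapped over the 6 libraries but not within WT, and *Pdgfrb* was above *Flt1* within each library. *Abcb1a* was lowest of the 10, at 3.97 to 6.75 TPM. *Rgs5* and *Cldn5* encode short proteins of 181 and 218 residues, and *Kdr*, *Flt1* and *Abcb1a* encode long ones of 1345, 1333 and 1276 residues for their main transcripts. The counts behind these levels ran from 706.9 for *Abcb1a* to 14553 for *Rgs5* in a library.

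The comparison of genotypes asked whether vessel genes differed in steady-state RNA between *Mov10* Deletion and WT hippocampi. Of the 10 genes, 4 passed the test: *Cldn5*, *Abcb1a* and *Pdgfrb* were lower and *Rgs5* was higher in Deletion. The general endothelial genes *Pecam1*, *Cdh5*, *Flt1* and *Kdr* and the transporters *Slc2a1* and *Mfsd2a* were not called. The test was limma-trend on TMM log2 CPM with 2 factors of unwanted variation, called at a Benjamini-Hochberg adjusted p under 0.05 over all 16745 genes. By the same rule 24.7% of all tested genes were called, 12.6% higher and 12.1% lower, and the share among the 10 genes was not read as particular to them. The median log2 fold change of the 10 genes was -0.03, beside 0.01 over all genes. In bulk tissue, fewer cells of a type and less RNA per cell cannot be told apart.

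*Cldn5*, which encodes claudin-5, the main claudin of brain endothelial tight junctions, was at 56.1, 43.6 and 46.6 CPM in Deletion and 61.9, 64.8 and 60.2 CPM in WT. Every Deletion library was below every WT library, and the gap was narrowest for Deletion library 1. The log2 fold change was -0.39 (SE 0.039, 95% interval -0.48 to -0.29, limma-trend adjusted p = 0.00152), a fold of 0.766. On the TPM scale *Cldn5* averaged 83.7 ± 13.5 TPM in Deletion and 102.3 ± 6.05 TPM in WT (SD, n = 3 each), and there the groups overlapped, since Deletion library 1 had 99.0 TPM and the lowest WT library 95.4 TPM. Without Deletion library 1 the log2 fold change was -0.47, and the call held in all 20 alternative settings, with log2 fold changes between -0.49 and -0.32 and adjusted p between 5.32e-09 and 0.0395. The gene lies on chromosome 16 (18595597 to 18597012, plus strand, GRCm39).

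*Abcb1a*, which encodes the P-glycoprotein efflux pump of mouse brain capillaries, was at 12.4, 9.26 and 10.3 CPM in Deletion and 13.2, 14.2 and 15.8 CPM in WT. Again no Deletion library reached the lowest WT library, and Deletion library 1 came closest. The log2 fold change was -0.41 (SE 0.061, 95% interval -0.55 to -0.27, limma-trend adjusted p = 0.00436), a fold of 0.754, and without Deletion library 1 it was -0.50. It was lower in 20 of 20 alternatives and called in 19 of them, with limma-trend adjusted p between 0.000341 and 0.0810. The call was lost with no filter on low counts, where 29469 genes were tested. *Abcb1a* lies on chromosome 5 (8710022 to 8798575, plus strand, GRCm39).

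The nutrient transporter genes were not called. *Slc2a1* encodes the glucose transporter GLUT1, which astrocytes and other cells also express, and was at 58.5, 49.1 and 51.0 CPM in Deletion against 47.6, 54.2 and 55.8 CPM in WT. *Mfsd2a*, the transporter of lysophospholipids carrying docosahexaenoic acid, which also limits vesicular transport in brain endothelium, was at 24.0, 23.2 and 21.5 CPM in Deletion against 23.0, 24.99 and 23.4 CPM in WT. The groups overlapped for both genes. The log2 fold change of *Slc2a1* was 0.04 (95% interval -0.06 to 0.13, limma-trend adjusted p = 0.518), and that of *Mfsd2a* was -0.06 (95% interval -0.20 to 0.08, adjusted p = 0.506). Without Deletion library 1 they were -0.03 for *Slc2a1* and -0.09 for *Mfsd2a*, not called.

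The adhesion genes were spread mainly by Deletion library 1. *Pecam1* encodes the adhesion molecule CD31 and was at 23.0, 19.3 and 18.9 CPM in Deletion and 19.8, 21.8 and 20.7 CPM in WT. *Cdh5* encodes VE-cadherin of endothelial adherens junctions and was at 33.1, 24.1 and 25.8 CPM in Deletion and 26.7, 28.5 and 27.3 CPM in WT. For both genes Deletion library 1 was above all WT libraries and the other 2 Deletion libraries were below all of them. The log2 fold changes were -0.03 for *Pecam1* (95% interval -0.17 to 0.10, limma-trend adjusted p = 0.690) and -0.02 for *Cdh5* (95% interval -0.13 to 0.08, adjusted p = 0.759). Without Deletion library 1 they were -0.11 and -0.14 (limma-trend adjusted p = 0.198 and 0.0782), still not called.

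The VEGF receptor genes also overlapped between the groups. *Kdr* encodes VEGFR2, the main signalling receptor for VEGF-A, and was at 63.1, 50.2 and 53.2 CPM in Deletion and 54.7, 56.6 and 51.5 CPM in WT. *Flt1* encodes VEGFR1, which binds VEGF-A tightly and signals weakly, and was at 28.8, 27.6 and 27.8 CPM in Deletion and 28.2, 28.8 and 25.8 CPM in WT. Both log2 fold changes rounded to -0.00, with 95% intervals of -0.10 to 0.09 for *Kdr* and -0.12 to 0.11 for *Flt1* (limma-trend adjusted p = 0.940 and 0.969). Without Deletion library 1 they were -0.08 for *Kdr* and -0.02 for *Flt1*, not called. Over the 6 uncalled endothelial genes and 20 alternatives, the lowest adjusted p was the 0.0782 of *Cdh5* without Deletion library 1.

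The 2 pericyte genes were called in opposite directions. *Rgs5* encodes a regulator of G protein signalling that marks pericytes, and was at 178.1, 161.4 and 166.1 CPM in Deletion and 150.5, 143.6 and 135.0 CPM in WT. Every Deletion library was above every WT library. The log2 fold change was 0.20 (SE 0.034, 95% interval 0.12 to 0.28, limma-trend adjusted p = 0.00647), a fold of 1.15, and it was 0.17 without Deletion library 1. It was called in 18 of 20 alternatives, with adjusted p between 0.000199 and 0.0969, and was lost with no filter and with a sex score in place of the factors. *Pdgfrb* encodes the receptor through which PDGF-B recruits pericytes, and was at 32.7, 27.1 and 28.5 CPM in Deletion and 32.5, 32.9 and 34.4 CPM in WT. Deletion library 1 lay within the WT range and the other Deletion libraries lay below it, so the groups overlapped. The log2 fold change was -0.18 (SE 0.044, 95% interval -0.28 to -0.07, limma-trend adjusted p = 0.0253), a fold of 0.884. *Pdgfrb* was lower in 20 of 20 alternatives but called in only 12 of them, with adjusted p between 0.00372 and 0.124: the call was lost without factors (adjusted p = 0.0912), without Deletion library 2 (0.0587) and without WT library 2 (0.0675), and was kept without Deletion library 1 (log2 fold change -0.24).

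**Figure D1:**
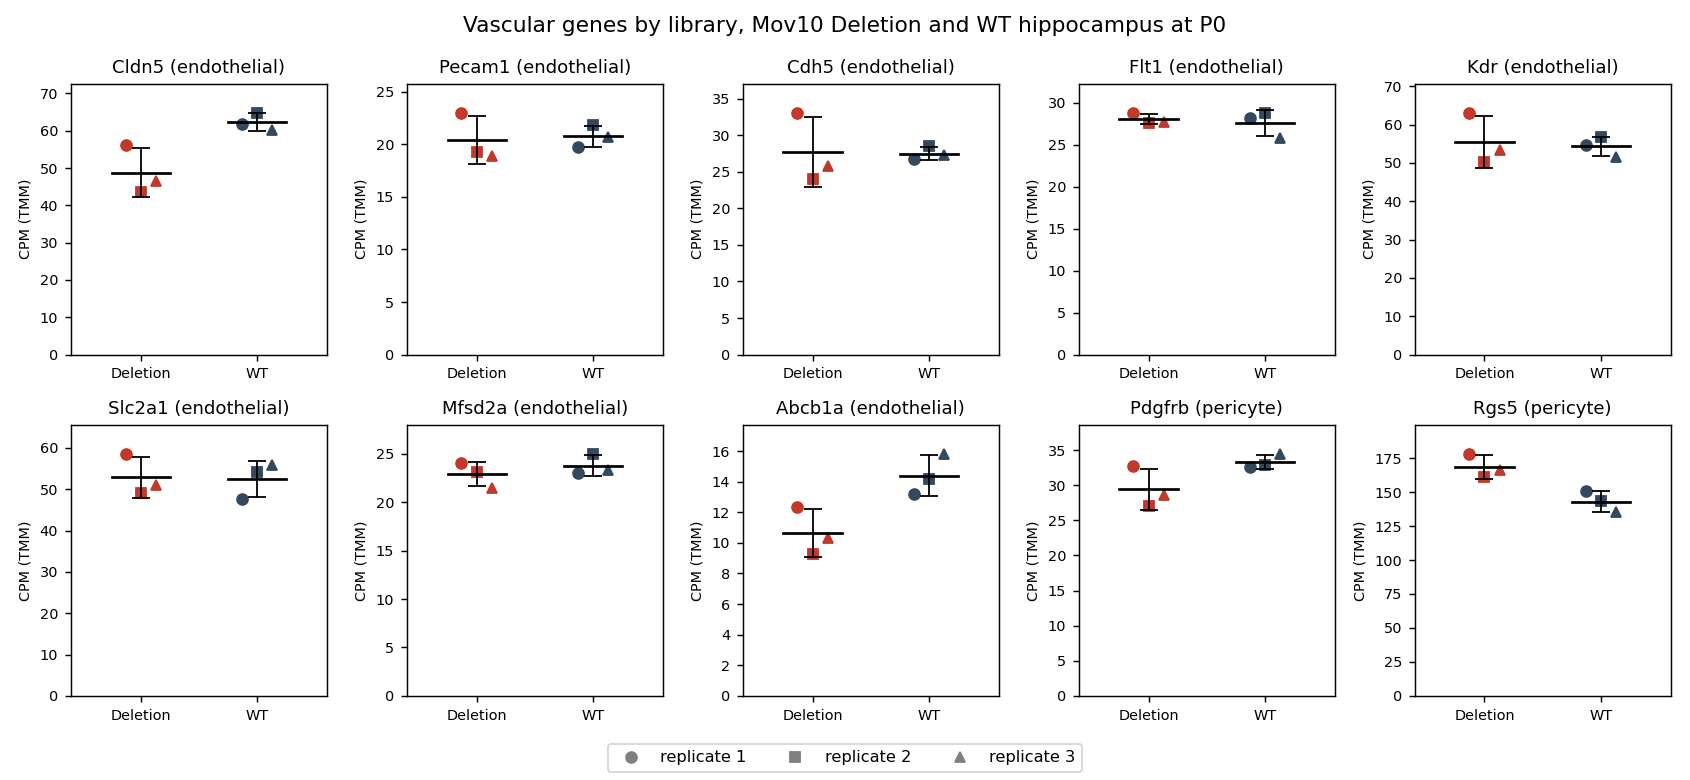
Normalized level (CPM, linear axis from 0) of the 8 endothelial and 2 pericyte genes in each library, Deletion left and WT right. Points are libraries with a marker for each replicate number, the long line is the mean and the bar the SD (n = 3). *Cldn5* and *Abcb1a* were lower and *Rgs5* higher in all Deletion libraries than in all WT libraries.

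Of the 10 genes, 3 had CPM groups that did not overlap (*Cldn5*, *Abcb1a* and *Rgs5*), against 41.6% of all tested genes. The 1 gene that lay higher and the 2 that lay lower in Deletion stand beside 20.4% and 21.2% of all tested genes.

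**Figure D2:**
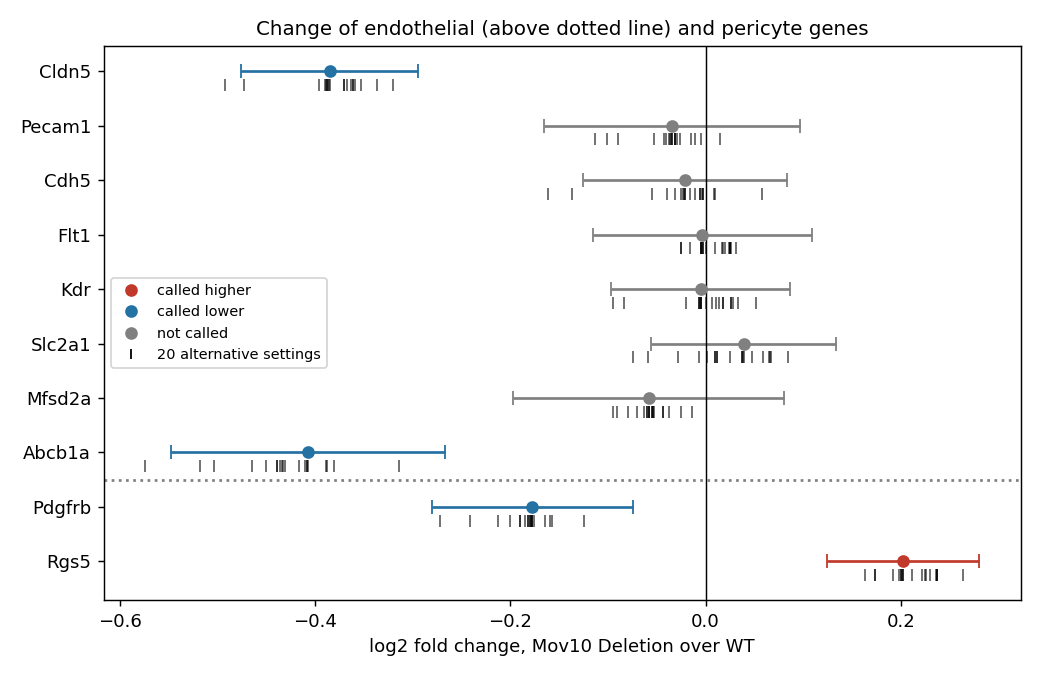
Log2 fold change of each vessel gene, Deletion over WT, with its 95% interval from limma-trend (points and bars) and its value in 20 alternative settings (ticks below). The intervals of *Cldn5*, *Abcb1a* and *Pdgfrb* lie below 0, that of *Rgs5* above 0, and those of the other 6 genes include 0.

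Endothelial and pericyte genes were then set against each other within each library, where differences in depth cancel. The summed level of the 8 endothelial genes was 240.3, 191.6 and 203.4 TPM in Deletion and 229.1, 241.4 and 222.4 TPM in WT, with means of 211.8 ± 25.4 and 230.9 ± 9.62 TPM (SD, n = 3 each). The summed level of the 2 pericyte genes was 124.3, 111.0 and 119.4 TPM in Deletion and 112.1, 106.1 and 97.8 TPM in WT. Both sums overlapped between the groups, the endothelial sum through Deletion library 1, since the sums of Deletion libraries 2 and 3 were under the WT range. The log2 ratio of the endothelial to the pericyte sum was 0.95, 0.79 and 0.77 in Deletion and 1.03, 1.19 and 1.19 in WT, a difference of -0.30, with every Deletion library below every WT library. *Rgs5* made up most of the pericyte sum and *Cldn5* was the most abundant endothelial gene, and no test was made of the ratio. With 18 other pericyte genes in place of the 2, the difference was -0.12 and the groups did not overlap. *Cldn5*, called lower by itself, stayed in the endothelial sum there, and the ratio without *Cldn5* was not tested.

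Levels relative to other genes of the same cell type were examined next, a comparison chosen after the values had been seen. The reference was the geometric mean of *Pecam1*, *Cdh5*, *Kdr* and *Flt1*, at 12.4 ± 1.29 TPM in Deletion and 12.3 ± 0.689 TPM in WT (SD, n = 3 each). These genes were already known to be uncalled, so the ratios largely repeat the fold change of the gene set against them. They do not stand for all endothelial genes: 25 further endothelial identity genes had a median log2 fold change of -0.15. Relative to the reference, *Cldn5* was at log2 ratios of 2.84, 2.69 and 2.71 in Deletion and 3.08, 3.04 and 3.04 in WT, a difference of -0.31. *Abcb1a* was at log2 ratios of -1.35, -1.51 and -1.39 in Deletion and -1.07, -1.05 and -0.78 in WT, a difference of -0.45. For both genes the groups did not overlap, and Deletion library 1 was the closest to WT of the Deletion libraries. For *Slc2a1* and *Mfsd2a* the differences of this log2 ratio were 0.05 and -0.05 and the groups overlapped. The log2 ratio of *Rgs5* to *Pdgfrb* TPM was 3.40, 3.57 and 3.55 in Deletion and 3.24, 3.16 and 3.00 in WT, a difference of 0.37 without overlap. These ratios are descriptions, with no test.

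*Abcb1a* has a close paralogue, *Abcb1b*, on the same chromosome, and reads that the pair share could be assigned to either. The coding sequences were identical at 87.6% of 3840 aligned positions, and the longest identical stretch was 338 bases, longer than a 150-base read. The gap-free 30-base window with the most differing positions, in exons 4 and 5, is shown (*Abcb1a* at chr5:8724839-8733409, *Abcb1b* at chr5:8856167-8860583, GRCm39, plus strand, intron removed). It was picked as the extreme and is not typical of the pair. Both sequences are from the GENCODE M39 reference, and capitals mark the 18 of 30 bases that differ.
Abcb1a: ATGagtgAGGccGaTaAAaGAGCCatGTtT
Abcb1b: CAAagtgGACccAaCaGTaCTCTGatCAtC
*Abcb1b* was at 3.75, 3.47 and 3.78 CPM in Deletion and 3.01, 2.48 and 2.77 CPM in WT. On that scale it was above WT in every Deletion library, opposite to *Abcb1a*. On the TPM scale the groups of *Abcb1b* overlapped, at 2.09, 4.18 and 2.22 TPM in Deletion and 3.93, 1.41 and 2.56 TPM in WT. Its log2 fold change was 0.40 (SE 0.118, limma-trend adjusted p = 0.0444), called in 14 of 20 alternatives with adjusted p between 0.0170 and 0.844, and it was 0.12 on length-scaled counts. With the counts of both genes added, the log2 fold change was -0.24 (limma-trend adjusted p = 0.0237), so the sum was lower in Deletion as well, by less than *Abcb1a* alone. How far reads moved between the paralogues was not tested.

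*Flt1* makes a membrane receptor and a soluble form that lacks the membrane-spanning and kinase parts and sequesters VEGF-A. The files list both: Flt1-202 codes for 1333 residues in 30 exons, and Flt1-203 codes for 688 residues and ends within the intron after exon 13. The sequences across the point where they part are shown from the GENCODE M39 reference. Flt1-202 has 6895 bases both there and in the files. Flt1-203 has 6315 bases there and 6292 in the files, so the counted form differed from it in length. Lower case is the last 15 bases of exon 13, shared by both (chr5:147576035-147576049, GRCm39, minus strand). Capitals are the first 15 bases of exon 14 in Flt1-202 (chr5:147571319-147571333) and the intron read directly after exon 13 in Flt1-203 (chr5:147576020-147576034).
Flt1-202: aagttctcgttagagATTCGGAAGCGCCAC
Flt1-203: aagttctcgttagagGTGAGCACTGCGGCA
The level of Flt1-202 was 4.84, 4.64 and 4.52 TPM in Deletion and 3.85, 4.25 and 3.49 TPM in WT. The level of Flt1-203 was 3.79, 3.44 and 3.88 TPM in Deletion and 5.05, 4.62 and 4.23 TPM in WT. For both forms the groups did not overlap, in opposite directions, while the gene as a whole overlapped. As a share of *Flt1* TPM, Flt1-203 was 43.9%, 42.3% and 43.8% in Deletion and 56.8%, 52.0% and 54.8% in WT.

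The difference in usage did not pass the test across genes. The log2 usage of Flt1-202 relative to Flt1-203 differed by 0.60 (SE 0.145), and the adjusted p was 0.0754 by limma's diffSplice with Simes' method over 10338 genes, of which 7.36% were called. The adjusted p of *Flt1* was 0.0323 without factors and 0.0435 with a filter at 1 CPM, which are under the threshold, and between 0.137 and 0.186 when any 1 library was left out. Salmon's division of shared reads sets both values. In the GENCODE M39 reference, 4066 bases of Flt1-203 lie in what is intron for Flt1-202. Unspliced RNA there would be counted to Flt1-203. That contribution was not tested.

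Of the 4 vessel genes with several tested transcripts, usage was called for 1, *Pecam1* (diffSplice adjusted p = 0.00214). The others were *Flt1*, *Slc2a1* (adjusted p = 0.387) and *Mfsd2a* (adjusted p = 0.911). The call came from the minor transcript Pecam1-207, which was at 0.883, 0.232 and 0.687 TPM in Deletion and 0, 0.0575 and 0.482 TPM in WT. The groups overlapped and WT library 3 was above Deletion library 2. The call was lost with a filter at 1 CPM, where Pecam1-207 was not tested (adjusted p = 0.850), without factors (0.121), without WT library 1 (0.495) and without WT library 3 (0.0547). The main transcript Pecam1-203 averaged 7.50 ± 0.662 TPM in Deletion and 7.50 ± 0.436 TPM in WT (SD, n = 3 each). For *Slc2a1*, the transcript annotated for nonsense-mediated decay, Slc2a1-204, held 29.0%, 33.3% and 32.8% of the TPM in Deletion and 26.2%, 30.4% and 24.95% in WT, and the groups overlapped.

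**Figure D3:**
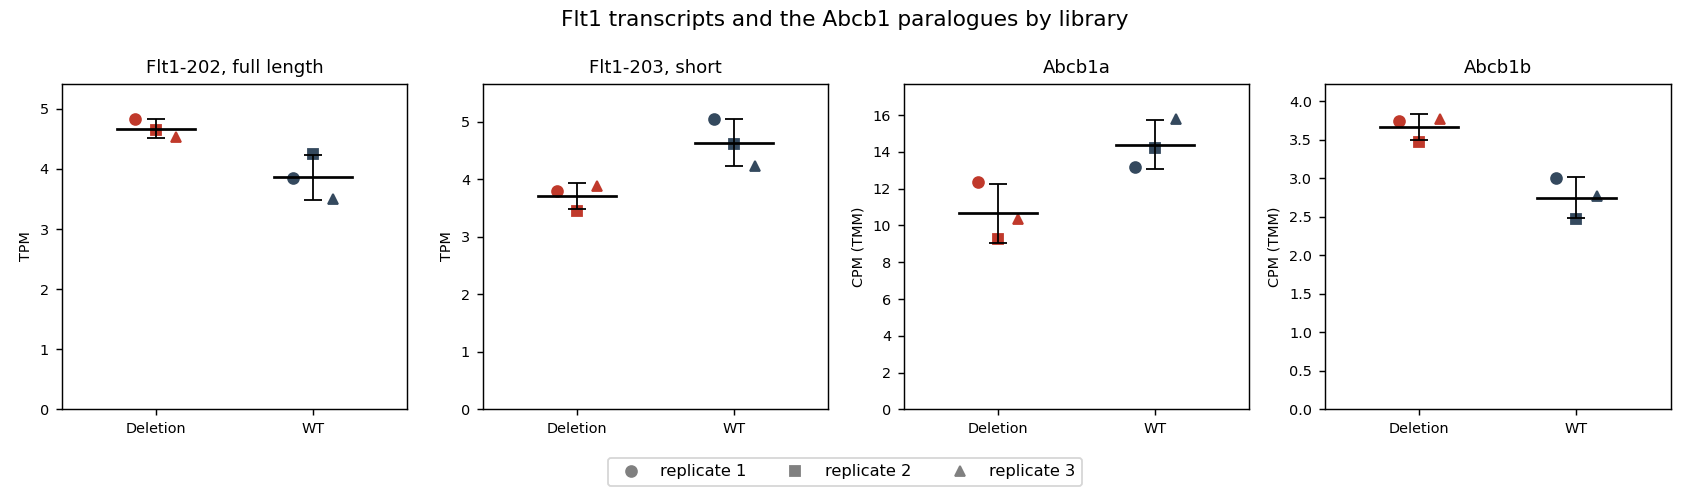
Level of the *Flt1* transcripts Flt1-202 and Flt1-203 (TPM, left panels) and of *Abcb1a* and *Abcb1b* (CPM, right panels) in each library, Deletion left and WT right, linear axes from 0. Points are libraries, the long line is the mean and the bar the SD (n = 3). In each pair the first and second panel differ in opposite directions between Deletion and WT on the scale drawn. In TPM the groups of *Abcb1b* overlapped.

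The surroundings of these genes were described with 11 lists of vessel-wall and signalling genes. The lists held 153 genes, of which 148 were tested, and 36 were called, 22 higher and 14 lower in Deletion. That is 24.3%, beside 24.7% of all tested genes, and the median log2 fold change was 0.00. Without Deletion library 1 the count was 55, while the count over all tested genes also rose, from 4137 of 16745 to 5128 of 16606.

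Of 25 further endothelial identity genes, 3 were higher and 4 lower in Deletion, or 28.0%, beside 24.7% of all tested genes. Their median log2 fold change was -0.15. *Klf2*, a transcription factor induced by blood flow, was at 6.94, 4.88 and 5.41 CPM in Deletion and 7.83, 8.53 and 8.18 CPM in WT (log2 fold change -0.53, limma-trend adjusted p = 0.00355), without overlap. *Vwf*, which encodes von Willebrand factor (log2 fold change -0.40, adjusted p = 0.00635), and *Nos3*, the endothelial nitric oxide synthase (-0.39, adjusted p = 0.0141), were also lower, and *Cd93* was higher (0.20, adjusted p = 0.0135). Among 11 tight junction genes other than *Cldn5*, 2 were lower (18.2% called), *F11r* (log2 fold change -0.33) and *Jam2* (-0.16), both junctional adhesion molecules. The other 9, including *Ocln* (-0.19) and *Tjp1* (-0.03), were not called. *F11r* and *Jam2* were called in 10 and 9 of 20 alternatives.

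Of 17 further barrier transport genes, 3 were higher and 2 lower, or 29.4%, beside 24.7% of all tested genes. *Slc38a5*, a glutamine transporter of brain endothelium, was at 20.5, 15.9 and 14.7 CPM in Deletion and 10.8, 8.68 and 8.27 CPM in WT, a fold of 1.73 (log2 fold change 0.79, limma-trend adjusted p = 0.00182), called in 20 of 20 alternatives. All Deletion libraries were above all WT libraries. *Slc22a8*, an organic anion transporter, was higher (log2 fold change 0.33, adjusted p = 0.0105). *Slc7a5* and *Slc3a2*, the light and heavy chain of the large neutral amino acid transporter, were both lower with log2 fold changes of -0.29 (adjusted p = 0.00514 and 0.00336). Both chains are also made by cells other than endothelium.

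Of 14 tested arterial, venous and tip cell genes, *Apln*, which encodes the peptide apelin of sprouting tip cells, had the largest fold. It was at 6.21, 4.58 and 4.72 CPM in Deletion and 1.80, 2.45 and 1.95 CPM in WT, a fold of 2.47 (log2 fold change 1.30, limma-trend adjusted p = 0.00150), called in 20 of 20 alternatives. Its receptor gene *Aplnr* was not called (log2 fold change -0.04). *Gja4*, an arterial connexin gene, was higher (log2 fold change 0.49, adjusted p = 0.00916), and *Ephb4*, a receptor of venous endothelium, was lower (-0.36, adjusted p = 0.00362).

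Of the genes for signals that act on vessels, 2 of 10 in the VEGF and angiopoietin list, 2 of 18 in the Wnt list and 1 of 12 in the pericyte recruitment list were called, beside 24.7% of all tested genes. *Vegfa*, the ligand of the receptors encoded by *Kdr* and *Flt1*, was at 66.3, 65.8 and 74.4 CPM in Deletion and 60.3, 53.9 and 52.5 CPM in WT (log2 fold change 0.28, limma-trend adjusted p = 0.0147), without overlap and called in 18 of 20 alternatives. *Angpt1*, a ligand of the endothelial receptor TIE2, was the other of 10 VEGF and angiopoietin genes that was called (log2 fold change 0.21, adjusted p = 0.0211). Of 18 genes of Wnt control of the barrier, *Fzd4*, the Norrin receptor, was higher (log2 fold change 0.29, adjusted p = 0.0454, called in 9 of 20 alternatives) and *Apcdd1* was lower (-0.16, adjusted p = 0.0188), while the ligand gene *Wnt7a* was not called (0.02, adjusted p = 0.860). Among 12 genes of pericyte recruitment, *Tgfbr1* was lower (-0.18, adjusted p = 0.0236), and *Pdgfb*, the ligand of the receptor encoded by *Pdgfrb*, was not called (0.02, adjusted p = 0.799).

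Of 18 pericyte identity genes other than *Rgs5* and *Pdgfrb*, 1 was higher and 2 lower, or 16.7%, beside 24.7% of all tested genes. *Kcnj8*, a potassium channel subunit of pericytes, was higher at 5.80, 5.60 and 5.49 CPM in Deletion against 3.53, 4.76 and 4.81 CPM in WT (log2 fold change 0.45, limma-trend adjusted p = 0.0180), called in 13 of 20 alternatives. *Foxc1* was lower (-0.31, adjusted p = 0.0429), although its CPM groups overlapped and it was called in only 7 of 20 alternatives, with adjusted p up to 0.507. The list held 15 genes that were not called, including *Abcc9* (0.06), which pairs with *Kcnj8*, and *Cspg4* (0.14), which encodes NG2. *Foxc1* is also expressed in meninges. The median log2 fold change of the list was 0.09.

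**Figure D4:**
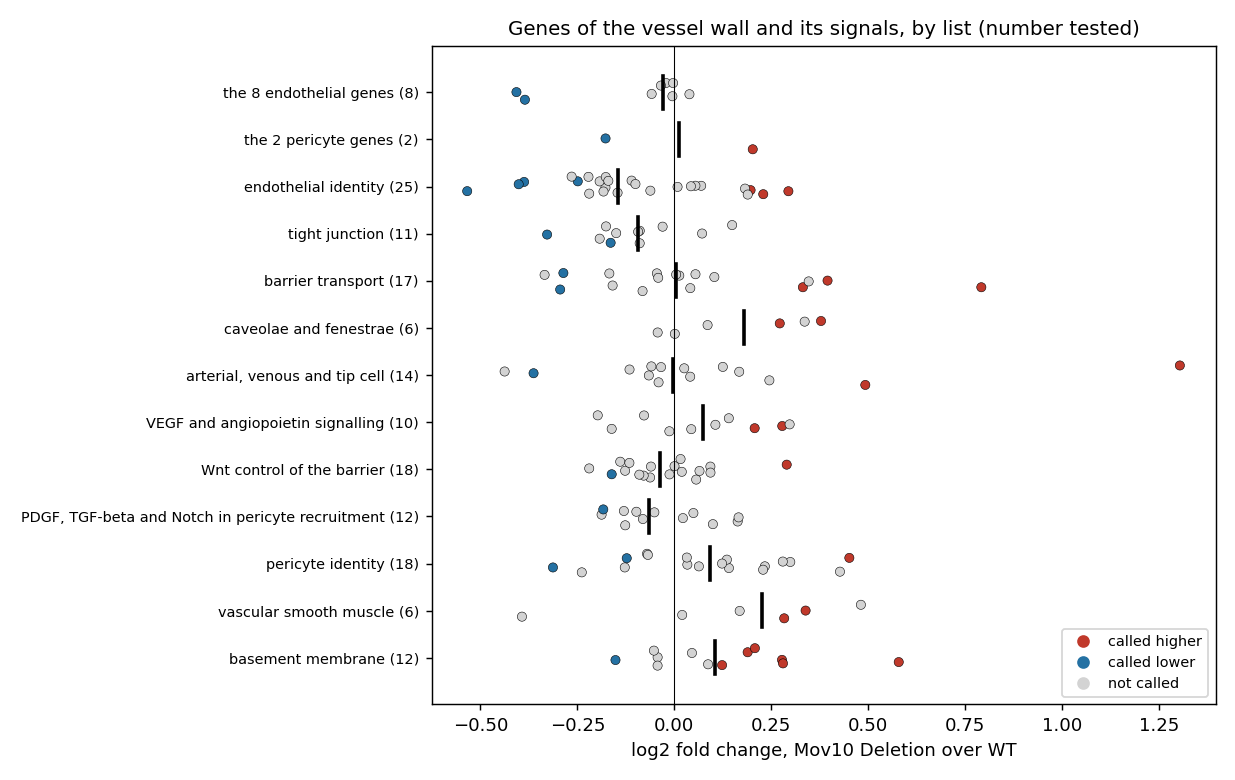
Log2 fold change of each tested gene, Deletion over WT, for the 8 endothelial and 2 pericyte genes (top) and 11 lists of vessel-wall and signalling genes, with the number tested in parentheses. Colours mark genes called higher, called lower or not called by limma-trend, and black bars are list medians. Called genes lie on both sides of 0, and *Apln* is the point at 1.30.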

How the data were processed

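Poly(A)-selected, strand-specific libraries of pooled P0 hippocampi (3 *Mov10* Deletion, 3 WT) were quantified by the authors with Salmon 1.4.0 against a decoy-aware mouse transcriptome and the GRCm39 genome. The deposited estimated counts are per transcript and not normalized. The deposited TPM are Salmon's own, scaled for transcript length and depth. The release of their annotation was not given in the sources used here.

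Transcripts (139225, of which 137570 matched) were summed into genes through GENCODE M39. Unmatched transcripts held 0.589% to 0.600% of the counts. The 16745 genes reaching 0.25 CPM in 3 or more libraries entered limma-trend on TMM log2 CPM (prior count 2) with 2 RUVs factors, written out in R, beside genotype, following the study's methods except that the RUVSeq function is not stated there (R 4.3.3, limma 3.58.1, edgeR 4.0.16, DESeq2 1.42.0 for alternatives). Calls were at a Benjamini-Hochberg adjusted p under 0.05, with 2 residual and 5.89 prior degrees of freedom. Fits with 1 library left out recomputed the factors on the remaining libraries and had fewer residual degrees of freedom. A smaller adjusted p or a larger count there was not read as stronger evidence. CPM values printed are not corrected for the factors, and p-values measure the spread between pools that the factors left. Transcript usage was tested with diffSplice.

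The genes and lists were chosen with earlier results of these data known. Apart from the 10 genes, the rule was to name the called genes with the smallest p of each list (up to 4 in a list). The ligands and paralogue given beside a gene, and *Mov10*, were named as well. Of the list genes under that rule, *Dtna* (log2 fold change 0.19), *Lum* (0.69), *Hba-a1* (-0.33) and the called hypoxia genes are not described. Other list members, *Prox1* and Pecam1-207 were chosen after their values were seen. Alternatives covered factors, a sex score, test, normalization, filter, prior count, counts, block and leaving out each library. Of the called pericyte identity genes, 1 is not reported here.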

Additional observations from a re-analysis of the deposited data

How the results depend on the processing

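The count of 4 called vessel genes fell to 2 with a sex score in place of the factors and to 1 with no filter on low counts, and was 3 to 4 when any 1 library was left out. Over all genes the count of 4137 became 1364 with the sex score and 925 with no filter, and 2803 to 5797 with 1 library left out. The 36 calls over the vascular lists became 12 and 8 in the same settings and 26 to 55 with 1 library left out, 55 being without Deletion library 1. Upper quartile normalization called 2320 genes higher and 1491 lower, against 2104 and 2033 with TMM. The difference of the endothelial to pericyte log2 ratio was -0.12 with the list of pericyte identity genes in place of the 2 genes, and -0.36 to -0.26 with 1 library left out. The count of vessel genes with called usage was 0 to 1 with 1 library left out. Same-numbered libraries deviated together with correlations of 0.0114, -0.0711 and 0.0432, so the numbers were not taken to pair them. With the replicate number as a block, without factors, 3425 genes and 3 of the 10 vessel genes were called, and the usage count was 0 by diffSplice, where *Pecam1* had an unadjusted p of 0.0322 and *Flt1* of 0.00670. Signs reversed for *Aldh1a2* (0.19) and *Ttr* (0.74) with edgeR's quasi-likelihood test without factors, for *Slc6a13* with the sex score (-0.29) and with 1 library left out (-0.13 to 0.97, -0.13 being without Deletion library 1), and for *Lyve1* with the sex score (-0.040). The cause was not tested.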

Other observations

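Of 12 basement membrane genes, 6 were higher in Deletion and 1 lower, beside 12.6% higher and 12.1% lower among all tested genes. The CPM groups did not overlap for 4 of the 12, beside 41.6% of all tested genes. Their summed level was 459.0 to 515.6 TPM in Deletion and 436.5 to 445.7 TPM in WT, without overlap. A large part of that sum was *Agrn*, at 213.4, 220.8 and 234.2 TPM in Deletion and 199.2, 190.5 and 183.7 TPM in WT. Deletion library 2 summed to 459.0 TPM with *Agrn* at 220.8 TPM, and WT library 2 to 445.7 TPM with *Agrn* at 190.5 TPM. Without *Agrn*, Deletion library 2 was thus below WT library 2, and the lack of overlap did not hold. *Lama2*, a laminin chain made by pericytes, astrocytes and fibroblasts, was at 10.3, 9.03 and 10.7 TPM in Deletion and 6.83, 7.43 and 7.73 TPM in WT (log2 fold change 0.58, limma-trend adjusted p = 0.00240), and *Hspg2*, which encodes perlecan, and *Nid2* were each higher by 0.28. *Hspg2* had overlapping CPM groups and was called in only 12 of 20 alternatives, with log2 fold changes down to 0.13 (without WT library 1) and adjusted p up to 0.365. *Agrn*, which encodes agrin, was higher by 0.19. Fibroblast and meningeal genes, which also make these proteins, were high in Deletion library 1 alone, and without that library the log2 fold changes of *Lama2*, *Hspg2*, *Nid2* and *Agrn* were 0.55, 0.24, 0.16 and 0.23. Both *Cav1* (0.27, limma-trend adjusted p = 0.00579) and *Cav2* (0.38, adjusted p = 0.00260), the caveolin genes, were higher without overlap between the groups. They were the 2 called of 6 caveolae and fenestrae genes, or 33.3%, beside 24.7% of all tested genes, and the other 4 were not called. The CPM groups did not overlap for 3 of the 6, all higher, beside 20.4% of all tested genes. Of 6 tested genes that mark smooth muscle, *Mylk* and *Myl9* were higher in the bulk tissue (log2 fold changes 0.34 and 0.28). That is 33.3%, beside 24.7% of all tested genes.

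Of 13 astrocyte and end-foot genes, 3 were higher and 3 lower in Deletion, beside 24.7% of all tested genes called in either direction. *Aqp4*, the water channel of astrocyte end-feet, was at 24.6, 21.3 and 21.7 TPM in Deletion and 9.79, 13.4 and 7.92 TPM in WT (log2 fold change 1.14, limma-trend adjusted p = 0.00279), and *Gfap* was higher (0.64, adjusted p = 0.00376), whereas *Hepacam*, an astrocyte adhesion molecule (-0.20, adjusted p = 0.0219), and *Kcnj10*, a potassium channel of end-feet (-0.15, adjusted p = 0.0359), were lower. Of 7 tested erythroid genes, 3 were lower, beside 12.1% of all tested genes, with *Slc4a1* at -1.02 and *Hbb-bt* at -0.62, and the summed level was 1210 to 1710 TPM in Deletion against 1375 to 1761 TPM in WT. Blood left in the vessels was not measured. *Ttr*, the choroid plexus transthyretin gene, was at 106.9, 1.80 and 8.999 TPM in Deletion and 32.2, 27.5 and 11.7 TPM in WT. Its fitted log2 fold change was -1.33 although its mean was higher in Deletion, and -2.61 without Deletion library 1, with the factors refitted. Of 12 microglia and macrophage genes, 2 were called higher, *Mrc1* (0.58) and *Lyve1* (0.92), and of 14 hypoxia genes 1 was higher and 2 lower, shares below the 24.7% called among all tested genes. The CPM groups of *Mrc1* and *Lyve1* overlapped, they were called in 14 and 11 of 20 alternatives, and without Deletion library 1 their log2 fold changes were 0.22 and 0.19 (limma-trend adjusted p = 0.204 and 0.498), not called.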
